A study of Mus musculus with 6 samples.

Results

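Integrins and laminins are the main receptor and ligand families by which cells hold on to basement membrane. The genes described here are 36 protein-coding mouse genes with the symbol of an integrin alpha or beta subunit or of a laminin alpha, beta or gamma chain, out of 35127 genes summed from the deposited transcript tables. They comprise 26 integrin genes (18 alpha and 8 beta subunits) and 10 laminin genes. RNA was sequenced from astrocytes taken out of mouse brains that carried an allograft of small cell lung cancer (SCLC, a fast-growing neuroendocrine tumour prone to brain metastasis), in 3 libraries called tumour 1 to 3. They were set against astrocytes from brains given a sham injection, in 3 libraries called sham 1 to 3. The comparison asks how astrocytes beside the graft differ from astrocytes of a brain without one. The labels give no mouse strain, age or genotype, no graft line and no time after injection. How the astrocytes were purified, and how many animals each library holds, was not given in the sources used here, so p-values measure only how much these libraries vary, and that may be technical variation.

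An integrin is a pair of 1 alpha and 1 beta subunit that spans the cell membrane. The alpha subunit sets much of the choice of ligand, and the cytoplasmic tails bind talin and kindlin, which link the receptor to actin. A laminin is a cross-shaped trimer of 1 alpha, 1 beta and 1 gamma chain, and laminin trimers polymerise into the first sheet of a basement membrane. In the brain, astrocyte endfeet rest on the laminin sheets around vessels and under the pia, and astrocytes are known to make part of that laminin themselves.

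The 6 libraries held 22133723 to 25800897 estimated reads, so depth was similar. Tumour libraries 1 to 3 lay close to each other and so did sham 1 and 2, with root mean square log2 differences over the tested genes of 0.322 to 0.352. Sham 3 stood apart, at 0.795 to 0.802 from sham 1 and 2, farther than the tumour libraries were from the sham libraries (0.734 to 0.749). Compared by chi-square, the counts of near pairs differed by 2.88 to 3.68 per degree of freedom, more than sampling noise. Those of all other pairs differed by 100.6 to 125.5. Such values cannot tell separate animals from repeat libraries, and the libraries were kept as separate samples as the labels list them. Whether near libraries came from separate animals or are repeat libraries of 1 preparation was not given in the sources used here, and in the second case n = 3 would stand for 1 tumour and 2 sham samples. All 10 astrocyte markers were detected, with summed levels of 3475 to 3582 CPM (read counts scaled to the library total) in tumour libraries. In sham 1, 2 and 3 they summed to 4788, 4800 and 2930 CPM, so the tumour libraries lay between sham 3 and the other sham libraries. In the comparison described below, Aldh1l1 and Slc4a4 were called higher (log2 fold changes 0.48 and 0.66) and Gja1 lower (-0.94). Other markers were present as well. Those of fibroblasts summed to 4182 to 4245 CPM in tumour and 4451 to 7223 CPM in sham libraries, and those of mural cells to 391 to 401 and 245 to 480 CPM. Endothelial markers summed to 621 to 630 CPM in tumour and 549 to 623 CPM in sham libraries, almost all of it Cdh5, with Cldn5 at 0 in every library and Pecam1 below 1 CPM. Kdr was called lower (log2 fold change -1.29), at 4.89 to 5.06 CPM in tumour and 9.98 to 13.4 CPM in sham libraries. Flt1 was not called but lay above all sham values, at 34.4 to 37.6 CPM against 8.88, 8.94 and 33.9 CPM. The 11 markers of neuroendocrine tumour cells summed to 14.8 to 17.7 CPM in tumour and 18.8 to 26.5 CPM in sham libraries. One of them, Epcam, had 0.24 to 0.33 CPM in tumour libraries and was at 0 in sham libraries. As an allograft, the graft is of mouse origin as well, so its RNA and that of the host map to the same genes. In bulk RNA, fewer cells of a type and less RNA per cell cannot be told apart.

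Laminin and integrin genes that changed were higher in the tumour libraries. Of the 36 genes 30 had enough reads to be tested, and 9 of them rose while 0 fell (quasi-likelihood test of edgeR, threshold 0.05 on the p adjusted by Benjamini-Hochberg over all 14359 tested genes). At an unadjusted p below 0.05, 11 were higher and 0 lower, beside 2538 and 2678 of the 14359 tested genes. DESeq2 called 11 higher and 0 lower, beside 1878 and 1830 over all genes. The counts with limma-voom were 10 and 0, beside 1638 and 1461 over all genes. At the adjusted threshold in edgeR, 10.5% of all tested genes rose and 10.4% fell, 20.9% in either direction. The 9 genes that rose were 4 of 10 laminin chains (Lama2, Lama4, Lama5 and Lamb3) and 5 of 20 tested integrin subunits (Itga11, Itga6, Itga7, Itga2b and Itgb2). The median log2 fold change was 0.49 over the 30 tested genes, 0.66 over the laminins and 0.48 over the integrins, beside -0.02 over all tested genes. All 3 tumour values lay above all 3 sham values for 14 of the 30 genes and below them for 1, against 22.2% and 21.9% of all tested genes. One of the 30, Lamb3, passed the filter on low counts through its tumour libraries alone, with 4 to 8 reads in each sham library.

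These counts moved with the libraries in the fit. Itga11, Lama4 and Lama5 were called whichever library was left out, while the other 6 lost their call without each of the tumour libraries, which left 3 called genes in each of those fits. Calls over all genes dropped too in those fits, to 536 to 542 higher and 355 to 383 lower, from 1506 and 1492. Lama2 then had an adjusted p of 0.0522 to 0.055 and Itga6 one of 0.0523 to 0.0549, close to the threshold. Without sham 1 the fit called 5 genes, Itga11, Itga6, Lama2, Lama4 and Lama5, and over all genes 850 higher and 758 lower. Without sham 3, which left the near pair sham 1 and 2 as the only sham libraries, it called 20 higher and 3 lower (Itgb4, Itgb8 and Lamb2), in a fit where 4250 of all genes were called higher and 4179 lower. Adding up near libraries, which leaves 1 tumour and 2 sham values, ended each call (0 genes in edgeR, 3 higher at an unadjusted p below 0.05). Sham 3 was above all other libraries in 7 of the 30 genes and below all others in 8, and its values are given below with each abundant or called gene.

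**Figure D1:**
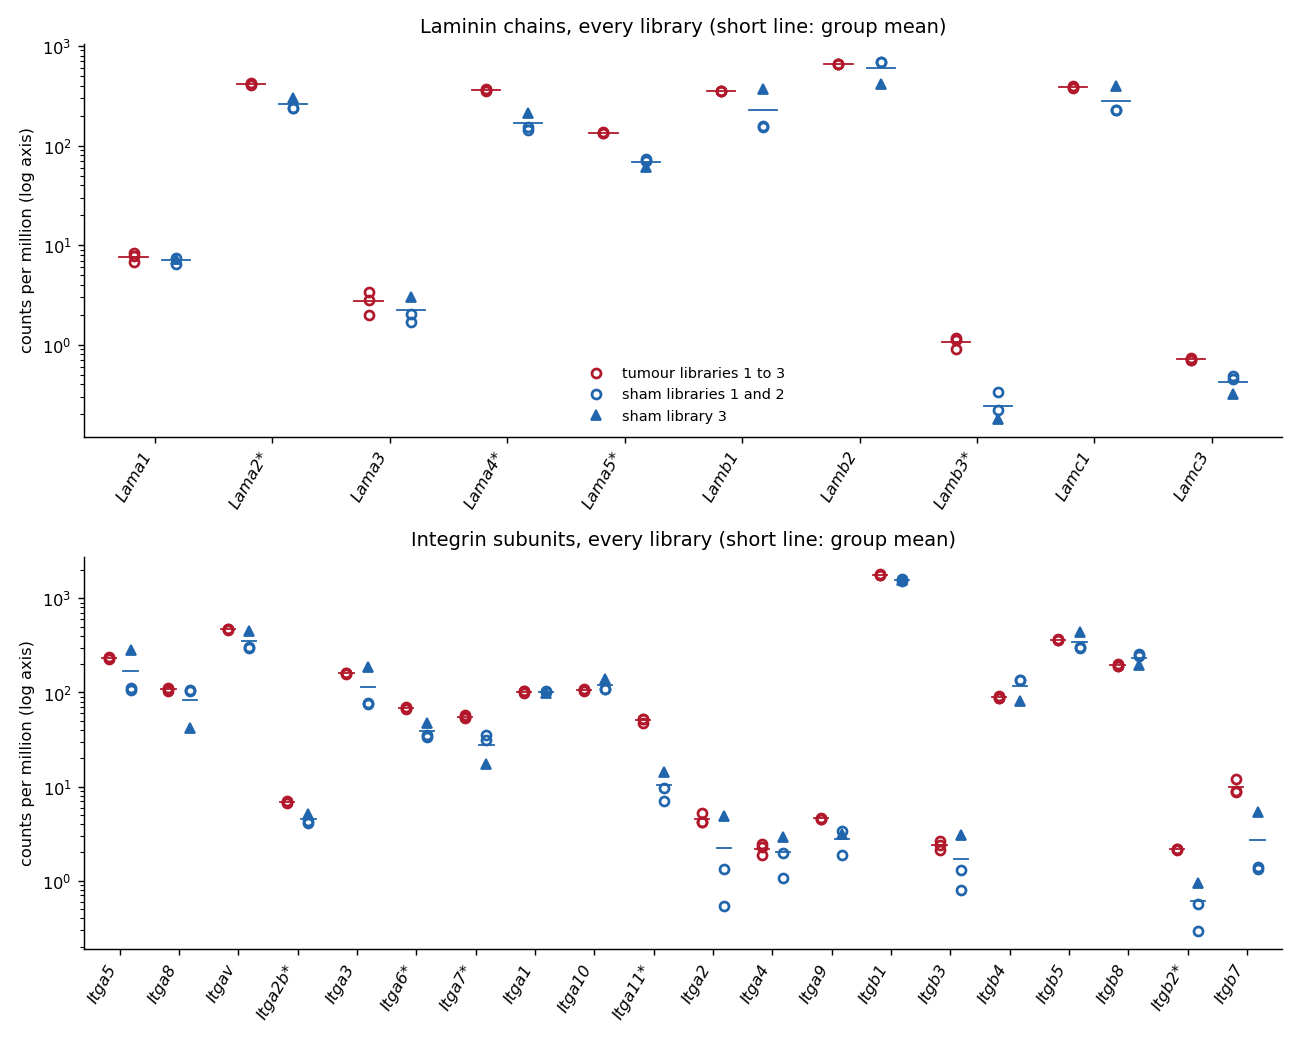
CPM (log axis) of the 30 tested laminin and integrin genes in each library, with tumour libraries at the left of each pair (red circles) and sham libraries at the right (blue, sham 3 as a triangle). Short lines are group means and an asterisk marks an adjusted p below 0.05. The 3 tumour values nearly coincide for most genes, sham 1 and 2 do so too, and sham 3 often lies away from them, as for Itga3, Itga5, Itga8 and Lamb1.

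Laminin alpha chains carry the globular domains to which integrins and dystroglycan bind, and 3 of the 5 rose. Lama4, the alpha chain of vessel and peripheral basement membranes, lies on chromosome 10 from 38965515 to 39110188 (plus strand, GRCm38). It had 364, 354 and 365 CPM in tumour libraries, against 145, 152 and 214 CPM in sham libraries. The tumour values were all higher than the highest sham value, that of sham 3. The log2 fold change was 1.09 (SE 0.16, adjusted p = 0.00648 in edgeR), and at least 0.98 whichever library was left out. Lama2, the alpha chain of laminin-211, which is lost in a congenital muscular dystrophy, lies on the same chromosome from 26980036 to 27619758 (minus strand). It had 409, 425 and 415 CPM in tumour libraries and 240.1, 240.4 and 299.7 CPM in sham libraries. Again sham 3 was the highest of the sham libraries and lay below the tumour libraries. For Lama2 the log2 fold change was 0.68 (SE 0.11, adjusted p = 0.0092 in edgeR).

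Lama5, the alpha chain of laminin-511 and laminin-521, lies on chromosome 2 from 180176373 to 180225859 (minus strand). It had 137, 135 and 133 CPM in tumour libraries against 70.3, 73.7 and 60.4 CPM in sham libraries. Here sham 3 was the lowest library, and the gap to the tumour libraries was wider than the spread of either group. The log2 fold change of 0.99 (SE 0.08, adjusted p = 0.00126 in edgeR) ranged from 0.91 to 1.04 when 1 library was left out. The other alpha chains were scarce. Lama1, a chain of embryonic and pial basement membranes, had 6.78 to 8.25 CPM in tumour and 6.51 to 7.48 CPM in sham libraries (log2 fold change 0.10, adjusted p = 0.643 in edgeR). Lama3, the epithelial chain, had 1.99 to 3.41 CPM in tumour and 1.70 to 3.04 CPM in sham libraries (log2 fold change 0.29, adjusted p = 0.57 in edgeR).

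Of the laminin beta chains the abundant pair was not called. Lamb2, the beta chain of synaptic and mature vessel basement membranes, had 658, 658 and 655 CPM in tumour libraries and 693, 686 and 415 CPM in sham libraries. The tumour libraries lay just under sham 1 and 2 and well above sham 3 (log2 fold change 0.14, SE 0.20, adjusted p = 0.675 in edgeR, and -0.071 without sham 3). Lamb1, the more widely expressed beta chain, had 351, 355 and 356 CPM in tumour libraries and 153, 158 and 367 CPM in sham libraries. Its sham 3 value was above the tumour values, while sham 1 and 2 were less than 160 CPM. For Lamb1 the log2 fold change was 0.65 (SE 0.34, adjusted p = 0.227 in edgeR), and 1.19 without sham 3. Lamb3, a chain of epithelial laminin-332, rose at very low counts, with 28, 27 and 23 reads in tumour libraries and 5, 8 and 4 reads in sham libraries (1.16, 1.11 and 0.91 CPM against 0.22, 0.33 and 0.18 CPM). At these counts the log2 fold change was 2.08 (SE 0.38, adjusted p = 0.0131 in edgeR, and 0.0551 to 0.0668 without 1 of the tumour libraries), and 3.04 with transcript length offsets. Per length, tumour 3 stood apart, with Lamb3 at 0.307, 0.336 and 1.32 TPM in tumour libraries. In protein-coding transcripts alone it had 0.307, 0.336 and 0.232 TPM there.

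Lamc1, the gamma chain in most laminin trimers, had 378, 395 and 390.5 CPM in tumour libraries and 225, 225 and 394 CPM in sham libraries. Sham 3 was at the tumour level, and the gene was not called (log2 fold change 0.46, SE 0.23, adjusted p = 0.199 in edgeR). Lamc3, a gamma chain, had under 1 CPM in each library (log2 fold change 0.77, adjusted p = 0.162 in edgeR). In sham 3, where Lamb1 and Lamc1 were at the tumour level, fibroblast markers summed to 7223 CPM and mural markers to 480 CPM, against 4450.5 and 4475 CPM and 248.7 and 245 CPM in sham 1 and 2. Genes of these lists went both ways in sham 3. Col1a2, for one, was higher there, at 3825 CPM against 2048 and 2092 CPM in sham 1 and 2. Dcn (52.5 against 132 and 123 CPM), Lum (45.9 against 60.8 and 55.7 CPM) and the mural marker Vtn (1.23 against 3.96 and 4.24 CPM) were lower. The part of fibroblasts and mural cells in the laminin values was not tested.

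Per transcript length, measured in the deposited TPM (transcripts scaled to a fixed sum per library), the alpha chains as a class differed more between groups than the beta chains. The 5 alpha chains summed to 168, 171 and 169 TPM in tumour libraries and 81.1, 86.2 and 112 TPM in sham libraries, a ratio of means of 1.82. The 3 beta chains summed to 276, 267 and 283 TPM in tumour and 243, 234 and 232 TPM in sham libraries, a ratio of 1.17. The alpha and beta sums did not overlap between groups. Lamc1 had 68.2, 71.5 and 71.7 TPM in tumour libraries and 41.1, 45.3 and 72.9 TPM in sham libraries, and there sham 3 was above the tumour libraries.

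**Figure D2:**
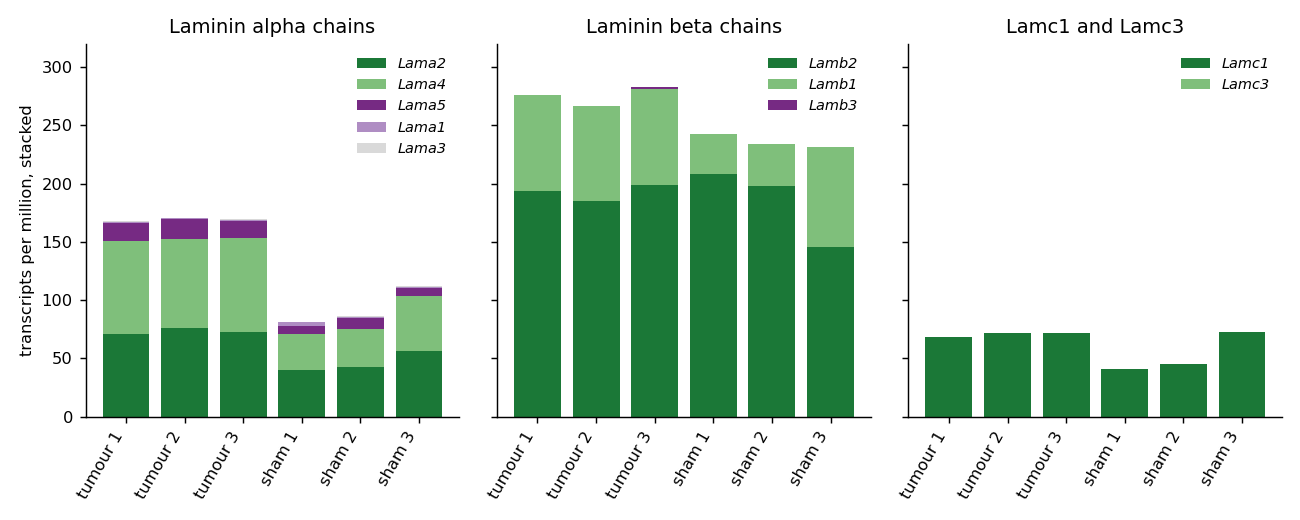
Laminin chain levels in TPM, stacked by gene from 0, for tumour libraries 1 to 3 and then sham libraries 1 to 3. The alpha chain sums of the tumour libraries (168 to 171 TPM) stand above those of the sham libraries (81.1 to 112 TPM), and in sham 3 Lamb1 and Lamc1 are at the level of the tumour libraries.

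The make-up of the laminins can be read from the same TPM levels. Lamb2 was the most abundant of the 10 chains, at 193 ± 7.30 TPM in tumour and 184 ± 33.8 TPM in sham libraries (SD, n = 3 each). Lama4 held 44.7% to 47.5% of the alpha chain TPM in tumour libraries and 37.2% to 42.5% in sham libraries, and Lama2 held 42.5% to 44.6% and 49.3% to 50.3%. Lama4 thus stood at 1.12, 1.00 and 1.11 times the TPM of Lama2 in tumour libraries, against 0.746, 0.769 and 0.846 times in sham libraries, with no overlap. The ratio of Lamb2 to Lamb1 was 2.26 to 2.42 in tumour libraries and 6.11, 5.47 and 1.69 in sham 1, 2 and 3, so that the tumour libraries lay between sham 3 and the other sham libraries.

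Laminin-binding alpha subunits were the integrin class with the most calls, 2 of 3, beside 10.5% of all tested genes that rose. Both calls were lost without any 1 of the tumour libraries and with transcript length offsets. Itga6, whose product pairs with beta 1 or beta 4 to bind laminins, lies on chromosome 2 from 71745616 to 71858416 (plus strand). It had 68.4, 70.0 and 67.4 CPM in tumour libraries and 35.3, 33.7 and 47.8 CPM in sham libraries. The groups were apart, with sham 3 the nearest to the tumour libraries. The log2 fold change was 0.82 (SE 0.14, adjusted p = 0.01 in edgeR). Itga7, which pairs with beta 1 and is the main laminin receptor subunit of muscle, lies on chromosome 10 from 128933818 to 128958282 (plus strand). It had 57.1, 54.5 and 54.1 CPM in tumour libraries and 31.3, 35.5 and 17.2 CPM in sham libraries. Sham 3 was the lowest library, and without it the log2 fold change was 0.72, against 0.98 with it (SE 0.25, adjusted p = 0.0371 in edgeR, and 0.114 to 0.126 without 1 of the tumour libraries). Itga3, the third laminin-binding subunit, had 161, 162 and 156 CPM in tumour libraries and 77.0, 75.4 and 188 CPM in sham libraries. Its sham 3 value was the highest of the 6, and the gene was not called (log2 fold change 0.49, SE 0.36, adjusted p = 0.368 in edgeR).

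Itga6 is spliced at the end of its coding region. Inclusion of 1 exon gives the cytoplasmic tail of alpha 6A, and skipping it gives that of alpha 6B. Transcript Itga6-201 holds this exon and Itga6-202 lacks it. Its 105 coding bases (chr2:71853534-71853638, plus strand, GRCm38, read from the GENCODE M21 transcript) are shown because they mark the form that carried most coding reads of the gene.
Itga6 alpha 6A exon, coding bases: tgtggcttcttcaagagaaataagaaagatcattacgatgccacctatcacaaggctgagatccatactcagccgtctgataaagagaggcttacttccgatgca
Itga6-201 had 993, 1006 and 942 estimated reads in tumour libraries and 303, 358 and 629 in sham libraries. Itga6-202 had 37.5, 69.2 and 52.7 reads in tumour libraries and 147, 60.6 and 9.12 reads in sham libraries. Of the summed TPM of these transcripts, Itga6-201 held 96.2%, 93.3% and 94.5% in tumour libraries and 66.4%, 85.0% and 98.5% in sham libraries. The form with the exon was thus the major one in each library, and the shares of the groups overlapped because sham 3 had the highest.

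The level of Itga6 per length depended on its non-coding transcripts. Itga6-205, a processed transcript of 443 bases, had 35, 44 and 49 reads in tumour libraries and 102, 100 and 63 reads in sham libraries, but being short it held 28.5% to 32.0% of the TPM of the gene in tumour libraries and 51.0% to 71.1% in sham libraries. As a result the gene sum was 46.4 ± 1.25 TPM in tumour and 46.3 ± 2.15 TPM in sham libraries (SD, n = 3 each), nearly equal, while the protein-coding transcripts summed to 14.2 ± 0.69 and 7.29 ± 2.13 TPM. With transcript length offsets in the fit the log2 fold change of Itga6 was -0.034, against 0.82 without. Itga6-201 and the processed transcript Itga6-203 were higher, and Itga6-205 lower, in each tumour library than in any sham library, both in reads and in TPM. With 3 libraries against 3 an exact permutation test of such a share could not go below 0.10, so none is given.

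**Figure D3:**
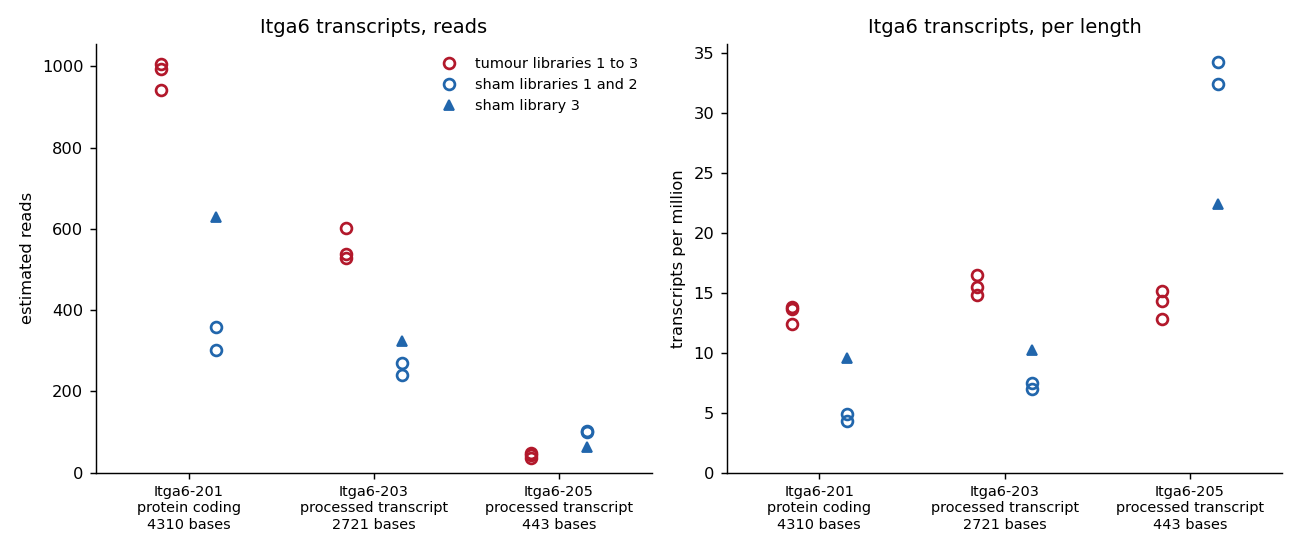
Estimated reads (left) and TPM (right) of the 3 main Itga6 transcripts, both axes from 0, tumour libraries as red circles at the left of each pair and sham libraries in blue (sham 3 as a triangle). Itga6-201 and Itga6-203 are higher and Itga6-205 is lower in tumour libraries, and the short Itga6-205 has few reads but the highest TPM in the sham libraries.

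Itga7 makes a different choice, between exons that exclude each other in its extracellular part, known as the X1 and X2 variants. Transcript Itga7-201 holds an exon of 120 bases (chr10:128941822-128941941) and Itga7-202 one of 132 bases (chr10:128941445-128941576), both on the plus strand of GRCm38 and read from GENCODE M21. They are shown because these bases tell the transcripts apart.
Itga7-201 exon: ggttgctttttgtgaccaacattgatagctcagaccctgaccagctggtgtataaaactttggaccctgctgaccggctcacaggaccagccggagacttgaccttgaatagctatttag
Itga7-202 exon: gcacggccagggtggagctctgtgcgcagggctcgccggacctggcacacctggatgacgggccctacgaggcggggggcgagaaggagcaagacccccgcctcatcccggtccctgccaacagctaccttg
The first has a GC content of 49.2% and the second one of 70.5%. Itga7-201 had 865, 919 and 931 reads in tumour libraries and 557, 692 and 247 reads in sham libraries. Itga7-202 had 499.7, 399 and 423 reads in tumour libraries and 134, 138 and 119 reads in sham libraries, so each form was more abundant in each tumour library than in any sham library. Of the TPM of both forms, Itga7-202 held 36.2%, 29.9% and 30.8% in tumour libraries and 19.1%, 16.3% and 32.0% in sham libraries. The shares overlapped, since sham 3 was among the tumour values.

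Transcript shares were looked at in the 22 genes with at least 2 transcripts and a mean of at least 1 TPM. Of 36 transcripts with a mean share of at least 10% of their gene, 6 had a higher share in each tumour library than in any sham library and 2 a lower one (16.7% and 5.56%), against 7.37% and 7.63% of 21615 transcripts of all genes by the same limits. Beside those of Itga6 and the gene share of Itga7-202 they include a retained-intron transcript of Lama2 with 12.7% to 14.9% of the gene TPM in tumour and 6.55% to 9.03% in sham libraries. Lama4, Itgb1, Itgb8 and Itga11 each had 1 transcript with over 94% of the gene TPM in each library.

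Collagen-binding alpha subunits all pair with beta 1, and 1 of the 4 rose. Itga11, the receptor subunit for fibrillar collagen that is best known from fibroblasts, lies on chromosome 9 from 62677826 to 62783982 (plus strand). It had 52.1, 47.4 and 52.0 CPM in tumour libraries and 9.68, 7.11 and 14.4 CPM in sham libraries. The lowest tumour value was more than 3 times the highest sham value, that of sham 3. For Itga11 the log2 fold change was 2.28 (SE 0.24, adjusted p = 0.00255 in edgeR), a 4.86-fold difference, and ran from 2.06 to 2.59 when 1 library was left out. No other gene of the families had a larger fold change in this fit, but that of Lamb3 was within the SEs, and without sham 3 Itgb7 was at 2.86. Of the 6 fibroblast markers listed 1 was called, Col3a1, which fell. The markers went both ways, since Col1a1 and Lum also lay below all sham values while Dcn lay above them, at 155 to 157 CPM in tumour and 52.5 to 132 CPM in sham libraries. Col6a3 had 135 to 140 CPM in tumour libraries and 54.8, 50.9 and 155 CPM in sham libraries. The part of fibroblasts in the Itga11 values was not tested.

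The other collagen-binding subunits were not called. Itga1, the subunit that prefers basement membrane collagen IV, had 104, 99.1 and 103 CPM in tumour libraries and 102, 103 and 97.6 CPM in sham libraries, all 6 within 6 CPM (log2 fold change 0.01, SE 0.06, adjusted p = 0.877 in edgeR). Itga10, known from cartilage, had 108, 106 and 103 CPM in tumour libraries and 109.6, 108 and 139 CPM in sham libraries. It was the 1 tested gene of the families with all tumour values below all sham values, by a narrow gap to sham 1 and 2 (log2 fold change -0.18, SE 0.11, adjusted p = 0.294 in edgeR). Of its exon bases 33.5% overlap another annotated gene on the same strand, so its reads are less certain. Itga2, the collagen receptor subunit of platelets and epithelia, had 4.19 to 5.30 CPM in tumour libraries and 1.32, 0.54 and 4.90 CPM in sham libraries (log2 fold change 1.03, SE 0.70, adjusted p = 0.341 in edgeR). It lies 20995 bases from Itga1 on chromosome 13. Per length, Itga11 reached 0.893, 0.803 and 0.836 times the TPM of Itga1 in tumour libraries, against 0.170, 0.127 and 0.253 times in sham libraries.

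**Figure D4:**
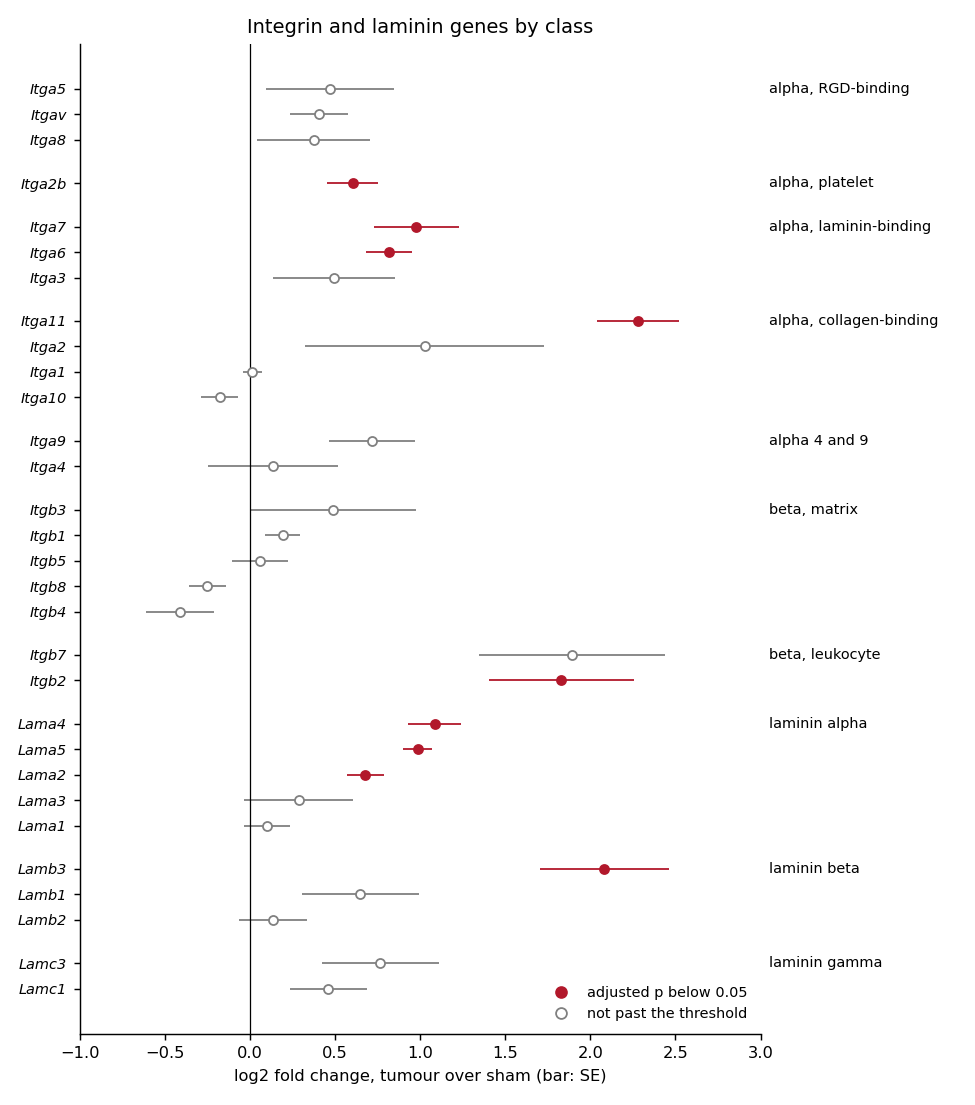
Log2 fold change of tumour over sham with its SE for the 30 tested genes, grouped by class, with filled red points for an adjusted p below 0.05. Itga11 is the farthest to the right at 2.28. Itga10, Itgb4 and Itgb8 are the genes with negative values, none of them called.

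Subunits that bind the RGD peptide of fibronectin and vitronectin were abundant, and none of the 3 alpha subunits was called. Itgav, the shared subunit of the vitronectin receptors and of the receptors that release TGF-beta, had 459, 476 and 470.1 CPM in tumour libraries and 300.1, 306 and 454.5 CPM in sham libraries. The groups did not overlap, but sham 3 was just below the tumour libraries (log2 fold change 0.41, SE 0.17, adjusted p = 0.144 in edgeR). Itga5, of the classical fibronectin receptor, had 227, 235 and 233 CPM in tumour libraries and 112, 107 and 282 CPM in sham libraries. Sham 3 was the highest of the 6 (log2 fold change 0.47, SE 0.38, adjusted p = 0.414 in edgeR), and without it the log2 fold change was 1.08. Itga8, a receptor subunit for nephronectin, had 110.0, 105 and 111 CPM in tumour libraries and 105, 105 and 41.5 CPM in sham libraries, so that sham 3 alone was low (log2 fold change 0.38, SE 0.33, adjusted p = 0.46 in edgeR). Summed per length, these subunits had 244 to 254 TPM in tumour libraries and 147, 152 and 244 TPM in sham libraries. Itgav held 33.8% to 35.2% of the TPM of all alpha subunits in tumour and 31.2% to 33.6% in sham libraries.

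Of the 5 tested beta subunits of matrix receptors 0 were called in edgeR and 0 had an unadjusted p below 0.05. Itgb1, the common partner of most alpha subunits, was the most abundant gene of both families, at 1776, 1791 and 1779 CPM in tumour libraries and 1588, 1522 and 1567 CPM in sham libraries. Its groups did not overlap, and the difference was small (log2 fold change 0.19, SE 0.10, adjusted p = 0.234 in edgeR). DESeq2 called it, as did edgeR without sham 3. Itgb5, a partner of alpha v, had 366, 362 and 359 CPM in tumour libraries and 298, 302 and 441 CPM in sham libraries, with sham 3 the highest (log2 fold change 0.06, SE 0.16, adjusted p = 0.825 in edgeR). Itgb8, the alpha v partner that activates TGF-beta and is prominent in astrocytes, had 193, 201 and 193 CPM in tumour libraries and 256, 244 and 198 CPM in sham libraries. Tumour 2 was above sham 3, so the groups overlapped (log2 fold change -0.25, SE 0.11, adjusted p = 0.15 in edgeR).

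Itgb4, the partner of alpha 6 in hemidesmosomes, had 87.7, 90.8 and 87.4 CPM in tumour libraries and 136, 137 and 80.3 CPM in sham libraries. Sham 3 was the lowest library, and the gene was not called (log2 fold change -0.41, SE 0.20, adjusted p = 0.195 in edgeR). Without sham 3 it was called lower at -0.62, and Itgb8 at -0.36. Itgb3, the platelet and osteoclast partner of alpha v, had 2.14 to 2.65 CPM in tumour and 0.79 to 3.04 CPM in sham libraries (log2 fold change 0.49, adjusted p = 0.512 in edgeR). Itgb6, an epithelial subunit, had 0 to 2 reads in each library and was not tested. Itgb1 alone had 1.78 to 1.83 times the TPM of all 18 alpha subunits together in tumour libraries and 2.31, 2.24 and 1.63 times in sham libraries. Matrix beta subunits summed to 989 ± 5.12 TPM in tumour and 886 ± 48.7 TPM in sham libraries (SD, n = 3 each).

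Of the leukocyte integrins, the alpha subunits were nearly absent. The alpha subunits Itgal (of LFA-1), Itgam (of the complement receptor CR3), Itgax, Itgad and Itgae had 0 to 9 reads in each library and were not tested. Of the exon bases of Itgam 68.7% overlap another annotated gene. Itgb2, the beta subunit that pairs with the first 4 of these, had 51, 53 and 55 reads in tumour libraries and 13, 7 and 21 reads in sham libraries, which is 2.11, 2.18 and 2.17 CPM against 0.57, 0.29 and 0.95 CPM. The groups did not overlap, and sham 3 was the highest of the sham libraries. For Itgb2 the log2 fold change was 1.83 (SE 0.43, adjusted p = 0.0287 in edgeR), and the call was lost without any 1 of tumour 1 to 3, sham 1 or sham 2 (adjusted p = 0.0574 to 0.104 in edgeR). With transcript length offsets it was 1.02 (adjusted p = 0.364 in edgeR), and per length the groups overlapped, at 0.988, 1.05 and 0.999 TPM in tumour libraries and 1.15, 0.133 and 0.442 TPM in sham libraries. Itgb7, a lymphocyte subunit that pairs with alpha 4 or alpha E, had 8.86, 12.1 and 9.0 CPM in tumour libraries and 1.32, 1.41 and 5.35 CPM in sham libraries, and its p fell just short of the threshold (log2 fold change 1.89, SE 0.55, adjusted p = 0.0541 in edgeR).

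Markers of blood cells beside these subunits were as follows. Of 11 markers of microglia and macrophages 1 was called, Cd68, which rose, at 41.3 to 45.8 CPM in tumour and 5.07 to 10.2 CPM in sham libraries. Other markers of the list were not called and went both ways, with Aif1 at 0.46 to 0.63 CPM in tumour and 0 to 0.23 CPM in sham libraries, and C1qa at 0.86 to 1.11 CPM in tumour libraries and 3.65, 3.99 and 0.64 CPM in sham libraries. The 11 markers summed to 132 to 136 CPM in tumour and 93.0 to 123 CPM in sham libraries. Most of each sum was Tmem119, at 86.0 to 87.7 CPM in tumour and 79.6 to 110 CPM in sham libraries (log2 fold change -0.06, not called). In each library 7 of the 11 were below 1 CPM, among them Ptprc, the leukocyte gene of CD45, at 0.04 CPM or less. The 8 lymphocyte markers summed to 0.25 to 0.59 CPM in tumour and 0.09 to 0.50 CPM in sham libraries, with 4 at 0 throughout, and the 5 neutrophil markers to 0.083 CPM or less. What part such cells had in the Itgb2 and Itgb7 values was not tested.

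Itga2b, known as the alpha subunit of the platelet fibrinogen receptor, had 6.71, 7.11 and 6.91 CPM in tumour libraries and 4.31, 4.16 and 5.17 CPM in sham libraries, with no overlap. The log2 fold change was 0.60 (SE 0.15, adjusted p = 0.0334 in edgeR). The call was lost without each library other than sham 3 (adjusted p = 0.102 to 0.128 in edgeR), and with transcript length offsets the log2 fold change was -0.043. As in Itga6, short transcripts carried much of its TPM. The gene sum was 6.22 ± 0.24 TPM in tumour and 6.27 ± 1.19 TPM in sham libraries, and its coding transcripts summed to 1.77 ± 0.14 and 0.91 ± 0.24 TPM (SD, n = 3 each). The other 4 platelet markers summed to 0.12 CPM or less in each library. Itga4, of the VCAM-1 receptor, had 1.90 to 2.44 CPM in tumour and 1.08 to 2.95 CPM in sham libraries (log2 fold change 0.14, adjusted p = 0.831 in edgeR). Itga9, a receptor subunit for tenascin and osteopontin, had 4.56 to 4.64 CPM in tumour and 1.87 to 3.34 CPM in sham libraries (log2 fold change 0.72, SE 0.25, adjusted p = 0.0905 in edgeR).

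Set in order of their levels per length in tumour libraries, Itgb1 led at 768 ± 4.53 TPM, followed by Lamb2 at 193 ± 7.30, Itgb5 at 158 ± 2.36 and Itgav at 148 ± 4.39 TPM. Lamb1 (82.1 ± 0.32), Lama4 (78.8 ± 2.16), Lama2 (73.4 ± 2.53), Itga5 (71.9 ± 3.15) and Lamc1 (70.4 ± 1.95 TPM) came next, the last 3 within their spread. In sham libraries Itgb1 also led, at 659 ± 23.4 TPM, with Lamb2 at 184 ± 33.8 and Itgb5 at 152 ± 37.4 TPM within their spread of each other (SD, n = 3 each). Lama4 there had 36.8 ± 9.40 TPM, below Lama2 at 46.4 ± 8.57 TPM and within the spread. The SDs of the tumour libraries were smaller than those of the sham libraries for each of these genes, among which sham 3 often lay apart.

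Promoter windows from RefSeq (GRCm38.p6) were found for 23 of the 36 genes, 26 windows in all. Those of Itga11 and Lama5, called whichever library was left out, are printed up to the annotated start of the gene, with GC boxes (GGGCGG or its reverse complement CCGCCC, the binding motif of Sp1) in capitals.
Itga11, chr9:62677605-62677825, plus strand: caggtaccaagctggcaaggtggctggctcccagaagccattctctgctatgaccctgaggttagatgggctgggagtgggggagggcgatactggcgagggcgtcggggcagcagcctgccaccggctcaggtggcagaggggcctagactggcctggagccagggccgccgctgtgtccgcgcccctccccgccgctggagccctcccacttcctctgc
Lama5, chr2:180225860-180226109, minus strand: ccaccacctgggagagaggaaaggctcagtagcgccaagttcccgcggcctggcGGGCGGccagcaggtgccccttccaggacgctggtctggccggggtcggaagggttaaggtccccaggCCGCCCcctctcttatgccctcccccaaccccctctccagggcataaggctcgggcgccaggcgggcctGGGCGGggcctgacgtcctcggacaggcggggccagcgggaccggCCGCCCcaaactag
The Itga11 window is rich in G and C (69.2%) but holds 0 GC boxes, and that of Lama5 (72.4%) holds 4. Over the 250 bases before the start, GGGCGG on either strand was in 9 of the 26 windows of these genes and in 32.7% of 32851 windows of all genes. The core letters of the hypoxia response element, ACGTG or GCGTG on either strand, were in 6 of the 26 windows (of Itga2, Itga9, Itgax, Itgb5, Lamb1 and Lamb3) and in 38.6% of all windows. The motifs ACGTG and GCGTG share their last 4 letters but cannot both match at 1 position. Of the genes called in the comparison, Lamb3 was the only one with such a match in a window given here, while Lama4, Itga6, Itga7 and Itgb2 had no window.

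Beyond the families, genes of proteins that act at integrin tails were looked at. Of 21 tested adaptor genes 2 rose and 3 fell (9.5% and 14.3%), shares near the 10.5% and 10.4% of all tested genes, with a median log2 fold change of -0.09. Fermt2, the gene of kindlin-2, which activates integrins at the beta tail, had 217, 216 and 211 CPM in tumour libraries and 103, 104 and 91.0 CPM in sham libraries (log2 fold change 1.11, SE 0.07, adjusted p = 0.000553 in edgeR). Lims2, of the adaptor PINCH-2, rose as well (0.75, SE 0.07). Tns3 (tensin 3; -0.89, SE 0.06), Vcl (vinculin; -0.80, SE 0.12) and Tln2 (talin 2; -0.69, SE 0.06) fell. The adjusted p of these 4 in edgeR was between 0.00064 and 0.00658. Tns3 had 146, 145 and 149 CPM in tumour libraries against 270.5, 278 and 269.7 CPM in sham libraries. Tln1, the main talin gene, had 426 to 429 CPM in tumour and 369 to 470.5 CPM in sham libraries and was not called.

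Of 11 tested basement membrane partners 2 rose and 1 fell (median log2 fold change 0.13), or 27.3% called beside 20.9% of all tested genes. Nid1, whose product nidogen-1 links laminin to collagen IV, had 1881, 1895 and 1882 CPM in tumour libraries and 666, 669 and 1158 CPM in sham libraries (log2 fold change 1.18, SE 0.24, adjusted p = 0.0177 in edgeR). Sparc, a collagen-binding matrix protein, rose (0.42, SE 0.12) and Agrn, of the laminin-binding proteoglycan agrin, fell (-0.28, SE 0.07). Among 18 tested integrin ligands 4 rose and 2 fell (median 0.12), or 33.3% called beside the same 20.9%. Npnt, of the alpha 8 beta 1 ligand nephronectin, had 134, 128 and 129 CPM in tumour libraries and 32.6, 36.5 and 52.1 CPM in sham libraries (log2 fold change 1.69, SE 0.17). Ltbp1, of a protein that anchors latent TGF-beta, rose by a log2 fold change of 1.75 (SE 0.33), Fn1 (fibronectin) by 1.55 (SE 0.15) and Spp1 (osteopontin) by 1.40 (SE 0.31). Tgfb3 (-0.46, SE 0.10) and Ccn3 (-0.66, SE 0.14) fell. The edgeR adjusted p of these 9 genes was between 0.00207 and 0.0474.

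Of 10 genes of membrane proteins that associate with integrins 3 were called, each of them higher (median log2 fold change 0.37), beside 10.5% of all tested genes that rose. Bsg, of basigin, the chaperone of lactate transporters that also binds beta 1 integrins, had 2406, 2423 and 2461 CPM in tumour libraries against 651, 663 and 600.1 CPM in sham libraries (log2 fold change 1.93, SE 0.11, adjusted p = 0.000336 in edgeR). Slc3a2 (CD98 heavy chain; 1.04, SE 0.13) and Cd47 (0.88, SE 0.06), both known partners of integrins, rose as well, with an edgeR adjusted p of 0.0037 and 0.000746. The integrin-associated tetraspanin genes Cd9, Cd81, Cd151, Cd63 and Cd82 had log2 fold changes between -0.06 and 0.13 and were not called.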

How the data were processed

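RNA sequencing of 6 astrocyte samples was analysed, 3 tumour and 3 sham, grouped by their titles. The submitters' processing notes name the mm10 build, Salmon 0.8.2 and DESeq2 1.28.1. Per the file headers, the authors deposited, for each transcript, an estimated count of reads, TPM, and a length and effective length in bases. Strandedness was not given in the sources used here, and Salmon divides reads shared by several transcripts, so overlapping genes and transcript shares are less certain.

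Of 113116 transcripts 112841 matched GENCODE M21 (GRCm38) by identifier and 275 were left out. Counts were summed per gene and rounded. The fit over all genes used edgeR 4.0.16 (R 4.3.3) with TMM, filterByExpr (minimum count 10, total 15), a robust quasi-likelihood fit on group and Benjamini-Hochberg adjustment at 0.05. Log2 fold changes are tumour over sham, SE is the log2 fold change over the square root of F, and CPM uses TMM library sizes. The procedure was tested on simulated data. TPM was summed per gene to compare levels and shares, with no test. A protein-coding set of transcripts was an alternative chosen after seeing the data. Others were DESeq2 1.42.0, its size factors, limma-voom (limma 3.58.1), no filter, length offsets, a replicate block, near libraries summed, protein-coding genes and each library left out.

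The genes and lists were chosen with earlier results of these data known. Genes with a mean of at least 10 CPM, or called, are given in every library and the others by range; of the partner lists, called genes are named, up to 6 with the smallest p. One gene of the families and 1 marker are not reported here and enter no count of the lists; they stayed in the fit over all genes. Tln1, the tetraspanin genes and single markers were named after their values were seen.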

Additional observations from a re-analysis of the deposited data

How the results depend on the processing

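The calls depended on the libraries more than on the tool. Genes of the 2 families called higher numbered 9 in the main analysis, 11 with DESeq2, 10 with limma-voom and 7 without a filter, with 0 lower in each. They numbered 5 with transcript length offsets, 5 with the replicate block, 0 with near libraries summed (3 at an unadjusted p below 0.05) and 3 to 20 without 1 library. The count called lower was 0 to 3 without 1 library, 3 only without sham 3. Over all genes, the higher count was 829 with the block, 0 with near libraries summed (400 at an unadjusted p below 0.05) and 536 to 4250 without 1 library. The lower count was 968 with length offsets, 607 with the block, 0 with near libraries summed (173 at an unadjusted p below 0.05) and 355 to 4179 without 1 library. Itga11, Lama4 and Lama5 were called in 14 of 15 alternatives, all but near libraries summed, where 1 tumour value stood against 2 sham values. Lama2 was called in 11, Itga6 in 10, Lamb3 in 9, Itga7 in 7, and Itga2b and Itgb2 in 6.

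Some log2 fold changes changed sign. With length offsets these were Itga2b (-0.043), Itga6 (-0.034) and Lama1 (-0.67), with near libraries summed Itga4 (-0.019) and Itgb5 (-0.038), and with protein-coding transcripts Itga1 (-0.012). Without 1 library, Itga1 ran from -0.011 to 0.035, Itga4 from -0.17 to 0.52, Itgb5 from -0.043 to 0.27 and Lamb2 from -0.071 to 0.25. The log2 ratio of class TPM was 0.96 for Itga2b and 0.65 for the laminin-binding subunits with coding transcripts only, against -0.01 and 0.30 with all. For Itga6 and Itga2b short non-coding transcripts carried much of the TPM. The same held for Lama1 in sham 1 alone, where a processed transcript of 565 bases had 72.9% of the gene TPM from 11.5 reads. The cause of these changes was not tested for any gene.

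Deviations of same-numbered libraries from their group means correlated at 0.008, -0.02 and -0.0008, which showed no pairing by replicate number. With 3 libraries in each group and sham 3 apart, this check could not exclude one. The replicate block ended the calls of Itga2b, Itga7, Itgb2 and Lamb3. Depth limits Lamb3 and Itgb2 (4 to 55 reads per library) and the untested genes. Intervals and SEs cover these libraries only.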
